A study of Mus musculus with 15 samples.

Results

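Genes known from heart muscle, 10 in all, were followed through 3 cell fractions of the mouse heart: Myl2, Myl3, Myl7, Tnnt2, Tnni3, Actc1, Ckm, Nppa, Nppb and Pln. They were chosen by name, as products of heart muscle cells whose RNA was measured in fractions prepared to hold stromal cells. All 10 had a value, each from 1 probe set, out of 13513 named genes with a value. The 15 arrays hold 5 samples of each of 3 groups, all from wild-type C57BL/6 mice aged 8 to 12 weeks. EpiSC are epicardial stromal cells shaken off the surface of hearts 5 days after myocardial infarction (MI). The group aCF holds activated fibroblasts of hearts 5 days after MI, and CF holds fibroblasts of unstressed hearts without MI. Per the labels' protocols, EpiSC and aCF were isolated at the same time from an infarcted heart, and whether equal replicate numbers mark the same heart is not stated. No sham-operated group is among the samples, so the infarct and the operation cannot be told apart between aCF and CF. Per the labels' protocols, all hearts were digested with collagenase, and shear at 80 rpm was applied only to infarcted hearts. For CF and aCF the atria were cut away, and a spin at 55 g took heart muscle cells out of the suspension. Strainers of 100 and 40 µm were also used for CF and aCF. The EpiSC were pelleted at 300 g from the fluid around the heart. Removal of atria, a strainer or a slow spin is not stated for them in the sources used here. Between EpiSC and CF, the infarct, the operation, the cell source and the preparation differ together and cannot be told apart.

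Heart muscle cells contract through sarcomeres, in which myosin thick filaments pull on actin thin filaments. Light chains sit on the neck of each myosin head, and the troponin complex on the thin filament lets calcium switch contraction on. Heart muscle cells also buffer their energy supply with creatine kinase, pump calcium back into the sarcoplasmic reticulum and secrete natriuretic peptides when the wall is stretched.

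The promoters of 4 of the genes are shown, because Myl2, Myl3 and Tnnt2 differed in the same direction between the groups while the difference of the myosin light chain gene Myl7 in EpiSC had the opposite sign. Each line gives the 250 bases before the RefSeq start of the gene in the direction of transcription, from RefSeq on build GRCm38.p6. Capitals mark matches, on either strand, to the MCAT element CATTCC, the GATA site AGATAA or the serum response factor site, and no listed motif overlaps another in capitals. The windows are chr5:122092474-122092723 on the plus strand for Myl2, chr9:110763428-110763677 on the plus strand for Myl3, chr1:135836084-135836333 on the plus strand for Tnnt2 and chr11:5898783-5899032 on the minus strand for Myl7.
Myl2: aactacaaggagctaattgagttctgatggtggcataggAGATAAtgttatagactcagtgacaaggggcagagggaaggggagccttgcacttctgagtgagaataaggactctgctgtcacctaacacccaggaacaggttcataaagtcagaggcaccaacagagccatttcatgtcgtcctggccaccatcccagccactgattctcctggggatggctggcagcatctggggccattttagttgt
Myl3: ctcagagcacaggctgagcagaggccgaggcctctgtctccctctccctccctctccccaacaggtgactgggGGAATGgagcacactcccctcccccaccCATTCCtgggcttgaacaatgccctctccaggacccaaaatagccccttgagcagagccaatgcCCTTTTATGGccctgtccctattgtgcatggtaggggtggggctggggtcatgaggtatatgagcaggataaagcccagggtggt
Tnnt2: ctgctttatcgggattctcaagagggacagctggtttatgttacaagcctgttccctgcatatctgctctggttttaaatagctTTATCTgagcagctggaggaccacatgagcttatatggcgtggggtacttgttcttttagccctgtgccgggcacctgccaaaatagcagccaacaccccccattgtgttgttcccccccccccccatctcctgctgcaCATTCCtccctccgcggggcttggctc
Myl7: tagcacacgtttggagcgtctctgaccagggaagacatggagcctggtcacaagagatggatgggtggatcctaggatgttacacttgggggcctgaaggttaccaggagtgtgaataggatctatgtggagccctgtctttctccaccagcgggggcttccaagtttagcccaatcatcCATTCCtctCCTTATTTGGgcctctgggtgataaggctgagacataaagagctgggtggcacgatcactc
The Myl7 window holds an MCAT element and a serum response factor site, and the Myl3 window holds both as well, with a second MCAT match. The Tnnt2 window holds an MCAT element and a GATA site. The Myl2 window holds a GATA site and none of the other capitalised motifs. All 10 genes have a promoter in the RefSeq table. Over them, CATTCC occurs in 4 (Tnnt2, Nppb, Myl3 and Myl7), AGATAA in 4 (Tnnt2, Nppb, Myl2 and Pln) and the serum response factor site in 3 (Actc1, Myl3 and Myl7). These motifs occur in 12.6%, 9.99% and 1.47% of the 32851 promoter windows of the same length. The TATA box TATAAA is in 3 of the 10 windows (Nppb, Nppa and Pln) and in 12.4% of all windows, the E-box CANNTG in 9 and 66.2%, and the MEF2 site in 0 and 2.92%. The E-box was not capitalised. A match is a description of the letters and does not show that a factor binds.

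The values are log2 expression, and the authors set the median of every probe set to 0. A value of 0 is thus the middle array, differences between groups are measured, and neither the level of a gene nor its height over background can be read. The names depend on reading each identifier's value 6900 rows further down the table, and 3 rows more on chromosomes 10 and 11. No source states this shift. It can be checked on the heart muscle genes themselves once group means are subtracted. Over the 28 pairs of the 8 genes on chromosomes 1 to 9 the mean correlation was 0.499 at 6900 rows, -0.0158 as deposited and at most 0.18 at 50 other displacements within 25 rows. The extra 3 rows bear on Myl7 and Pln and have thinner support. They were checked on 20 genes on chromosomes 10 and 11, taken from the related lists and the cell type marker lists. With the extra rows these genes had a mean correlation of 0.188 with their own list. It was 0.0888 without the extra rows and at most 0.142 at the other shifts tried.

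The fractions carried the markers in their labels in part. Epicardial genes were higher in EpiSC, with 4 of 7 measured past the threshold against CF, among them Wt1 and Bnc1, and 3 of 7 past it against aCF. Over all probe sets, 1.97% passed upward against CF, and 0.666% passed in either direction against aCF. Of 9 fibroblast genes, 3 rose in aCF against CF (Col1a1, Col1a2 and Col3a1) and Ddr2 fell, where 1.53% of all probe sets passed in either direction. Correlations between arrays of a group ran from 0.423 to 0.524 in EpiSC, from 0.0301 to 0.426 in aCF and from 0.627 to 0.747 in CF. These were taken on the centred values, and centring can lower them for a group that lies between the others. They therefore do not rank the groups by reproducibility. On the first principal component, with 44.5% of the variance, EpiSC lay between 33.1 and 47.0 and CF between -48.1 and -37.4. There aCF4 (15.0) and aCF5 (11.6) lay nearer to EpiSC than aCF1 (-12.4), aCF2 (-1.91) and aCF3 (-2.12). For the 10 genes and for the calls given below from the related gene lists that rest on aCF, values without aCF4 and aCF5 are given where they lose the call, change sign or move by over 1.5 times. For calls of cell type marker genes no such values are given, so whether those calls hold without aCF4 and aCF5 is not shown.

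EpiSC had less Myl2, Myl3 and Tnnt2 RNA than CF, by 6.76-fold, 4.55-fold and 4.72-fold. These were 3 of the 10 genes past the threshold downward, where 0.941% of all 22206 probe sets passed downward in this comparison, and 0 of the 10 passed upward, where 1.97% did. The threshold is a Bonferroni-adjusted p of 0.05 in limma over all probe sets. In EpiSC against aCF 0 of the 10 passed it, where 0.666% of all probe sets did, and in aCF against CF 0 of the 10, where 1.53% did. The myosin light chain gene Myl7 was highest in EpiSC and lowest in aCF, and its adjusted p missed the threshold in every comparison.

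**Figure D1:**
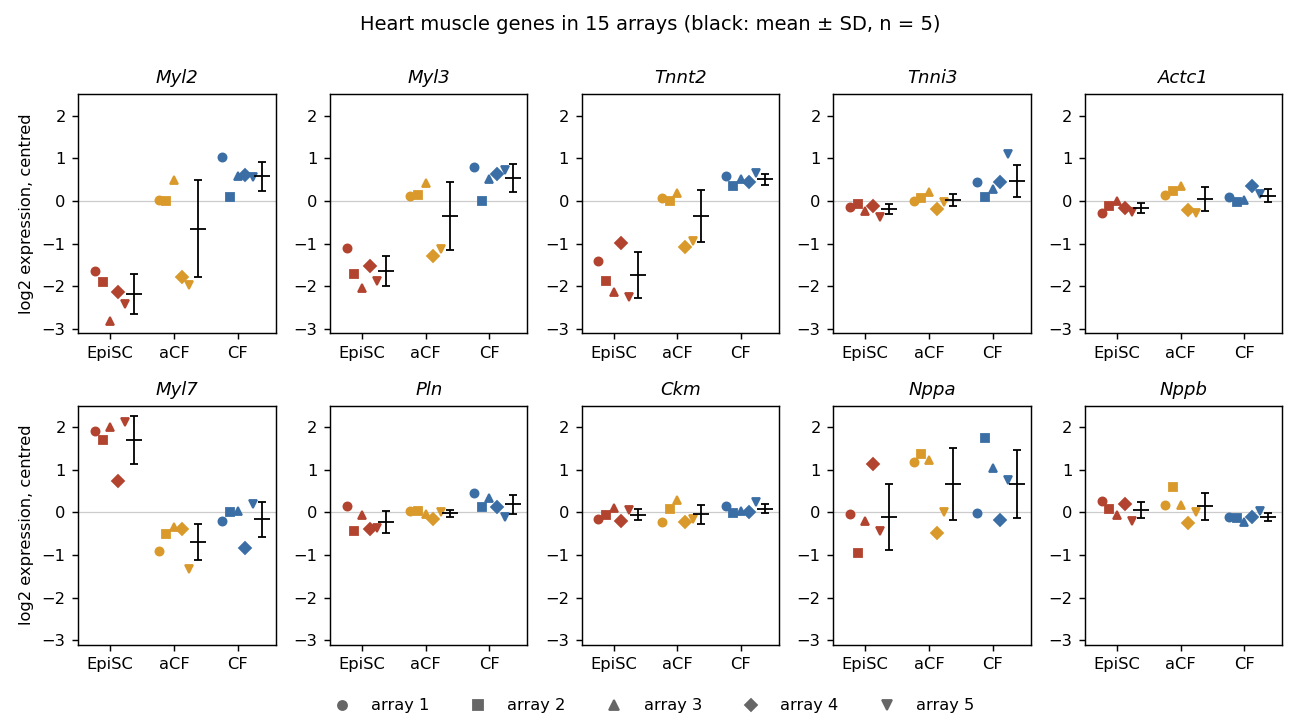
Centred log2 expression of the 10 heart muscle genes in each array (vertical axis), by group (horizontal axis), with a symbol per replicate number and the mean ± SD of 5 arrays in black. Myl2, Myl3 and Tnnt2 are low in all 5 EpiSC arrays and in aCF4 and aCF5, Myl7 is high in EpiSC, and Ckm and Nppb stay within 0.6 of the middle array.

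Myl2 encodes the regulatory myosin light chain of the ventricle. Its values in EpiSC were -1.63, -1.89, -2.82, -2.14 and -2.41, in aCF 0.02, 0, 0.50, -1.79 and -1.97, and in CF 1.04, 0.10, 0.59, 0.60 and 0.56. Every EpiSC array lay below every CF array, while aCF split, with 3 arrays within the CF range or just under it and 2 within the EpiSC range. The means were -2.18 ± 0.46 in EpiSC, -0.65 ± 1.14 in aCF and 0.58 ± 0.33 in CF (SD, n = 5 each). EpiSC were lower than CF by a log2 difference of -2.76 ± 0.23 (SE, limma, Bonferroni-adjusted p = 0.00462).

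Myl3, the essential light chain of the ventricle, followed the same order. It stood at -1.11, -1.70, -2.03, -1.53 and -1.87 in EpiSC, at 0.12, 0.13, 0.41, -1.29 and -1.13 in aCF, and at 0.80, 0, 0.52, 0.64 and 0.73 in CF. Again EpiSC and CF did not overlap, and aCF4 and aCF5 lay with EpiSC while the other 3 aCF arrays lay within the CF range. The log2 difference of EpiSC from CF was -2.19 ± 0.19 (SE, limma, Bonferroni-adjusted p = 0.00838).

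Tnnt2 encodes cardiac troponin T, the subunit that ties the troponin complex to tropomyosin. Its EpiSC values were -1.40, -1.88, -2.13, -0.98 and -2.26, its aCF values 0.08, 0, 0.18, -1.08 and -0.93, and its CF values 0.59, 0.34, 0.52, 0.44 and 0.66. All aCF arrays lay below all CF arrays here, and aCF4 and aCF5 lay at the upper edge of the EpiSC values. The SD was 0.53 in EpiSC, 0.60 in aCF and 0.13 in CF (n = 5 each), so the CF arrays lay closest together. EpiSC differed from CF by -2.24 ± 0.22 on the log2 scale (SE, limma, Bonferroni-adjusted p = 0.0235).

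How firmly these 3 calls held depended on single arrays. The Myl2 call held when any 1 of the 10 arrays was left out, with adjusted p up to 0.0351. The Myl3 call was lost without EpiSC2, CF3, CF4 or CF5, with adjusted p up to 0.061. The Tnnt2 call held in 1 of 10 omissions, that of EpiSC4, and reached an adjusted p of 0.151 in the others, while its difference stayed between -2.43 and -1.86 under every alternative tried. With all 3 groups in 1 fit, Tnnt2 passed (adjusted p = 0.0202), and Myl2 (0.305) and Myl3 (0.116) did not.

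Set against aCF, EpiSC averaged lower for all 3 genes, and the groups overlapped through aCF4 and aCF5 for Myl2 and Myl3 and through aCF4 for Tnnt2. The log2 differences were -1.53 ± 0.49 for Myl2, -1.30 ± 0.35 for Myl3 and -1.38 ± 0.32 for Tnnt2 (SE, n = 5 each), and each had a Bonferroni-adjusted p of 1 in limma. After Benjamini-Hochberg adjustment the p was 0.0816 for Myl2, 0.042 for Myl3 and 0.0233 for Tnnt2. Without aCF4 and aCF5 the differences were -2.35, -1.87 and -1.82, with Bonferroni-adjusted p of 0.379, 0.261 and 1.

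Between aCF and CF the 3 genes averaged lower in aCF, by -1.23 ± 0.47 for Myl2, -0.89 ± 0.34 for Myl3 and -0.86 ± 0.24 for Tnnt2 (log2, SE, Bonferroni-adjusted p = 1 each in limma). Without aCF4 and aCF5 the differences shrank to -0.40, -0.32 and -0.42. The order from low to high was EpiSC, aCF, CF for each of the 3 genes, and neither neighbouring pair differed past the threshold. Without aCF4 and aCF5 the order of the means stayed the same, while aCF lay nearer to CF and further from EpiSC.

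The thin filament genes Tnni3 and Actc1 varied far less. Tnni3, cardiac troponin I, which holds contraction off when calcium is low, measured -0.15, -0.08, -0.24, -0.12 and -0.38 in EpiSC, 0, 0.08, 0.20, -0.19 and -0.02 in aCF, and 0.45, 0.10, 0.29, 0.44 and 1.09 in CF. All EpiSC arrays lay below all CF arrays, and CF5 stood highest. The log2 difference of EpiSC from CF was -0.67 ± 0.16, a 1.59-fold lower value, with a Bonferroni-adjusted p of 1 and a Benjamini-Hochberg p of 0.00972 (limma).

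Actc1, the cardiac alpha-actin, had EpiSC values of -0.29, -0.11, 0, -0.16 and -0.26, aCF values of 0.14, 0.24, 0.34, -0.20 and -0.28, and CF values of 0.10, -0.03, 0.02, 0.36 and 0.17. The groups overlapped, and aCF4 and aCF5 were again the lowest of their group. EpiSC differed from CF by -0.29 ± 0.09 (SE, limma, Benjamini-Hochberg adjusted p = 0.0285, Bonferroni-adjusted p = 1). The aCF difference from CF, -0.08 ± 0.13, turned to 0.12 without aCF4 and aCF5, and that of EpiSC from aCF, -0.21 ± 0.13, became -0.40.

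Myl7 encodes the regulatory myosin light chain of the atrium, the atrial counterpart of Myl2, and it was the 1 sarcomere gene of the 10 that was highest in EpiSC. Its values there were 1.90, 1.69, 2.00, 0.72 and 2.12, against -0.90, -0.50, -0.35, -0.40 and -1.33 in aCF and -0.20, 0, 0.02, -0.85 and 0.19 in CF. Every EpiSC array lay above every array of the other groups, and EpiSC4 was the lowest of its group. The means were 1.69 ± 0.56 in EpiSC, -0.70 ± 0.41 in aCF and -0.17 ± 0.41 in CF (SD, n = 5 each).

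EpiSC exceeded aCF by a log2 difference of 2.38 ± 0.28 for Myl7, or 5.21-fold, with a Bonferroni-adjusted p of 0.13 and a Benjamini-Hochberg p of 0.000601 (SE, limma). Without aCF4 and aCF5 it was 2.27. Against CF the difference was 1.85 ± 0.28, or 3.62-fold, with a Bonferroni-adjusted p of 1 and a Benjamini-Hochberg p of 0.000661. The call moved with EpiSC4. Without it Myl7 passed the Bonferroni threshold against aCF (adjusted p = 0.00679) and against CF (0.0364). It also passed against aCF with all 3 groups in 1 fit (0.00875). The sign rests on the extra 3 rows of displacement on chromosome 11. Without them the row paired with Myl7 gave -0.88 for EpiSC against aCF, 0.36 for aCF against CF and -0.52 for EpiSC against CF.

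Atria were removed from the aCF and CF preparations per the labels, so genes of the atrium were listed beside Myl7. None of 11 measured atrial genes passed the Bonferroni threshold in limma in any comparison. In EpiSC against CF, 3 of them had an unadjusted p under 0.05 upward and 4 downward, where 42.7% of all probe sets reached that level. Their mean lay between 0.11 and 0.33 in EpiSC, between -0.11 and 0.01 in aCF and between -0.06 and 0.11 in CF. The list's median log2 difference of EpiSC from CF was 0.02, against -0.01 over all probe sets. Myl4, the essential light chain of the atrium, named here after its values were seen, lay between -0.16 and 0.22 in EpiSC, -0.24 and 0.08 in aCF, and -0.36 and 0.23 in CF. The mean in EpiSC leaned on 1 gene. Dhrs9, a retinol-metabolising dehydrogenase, lay between 0.60 and 3.13 there and differed by 2.10 ± 0.39 between EpiSC and CF (SE, Bonferroni-adjusted p = 1), and Tbx5, a transcription factor of atria and left ventricle, by 0.87 ± 0.18 (Bonferroni-adjusted p = 1). Kcna5, a potassium channel of the atrium, differed by -0.41 ± 0.09 (Bonferroni-adjusted p = 1). The part of atrial tissue in the Myl7 values was not tested.

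**Figure D2:**
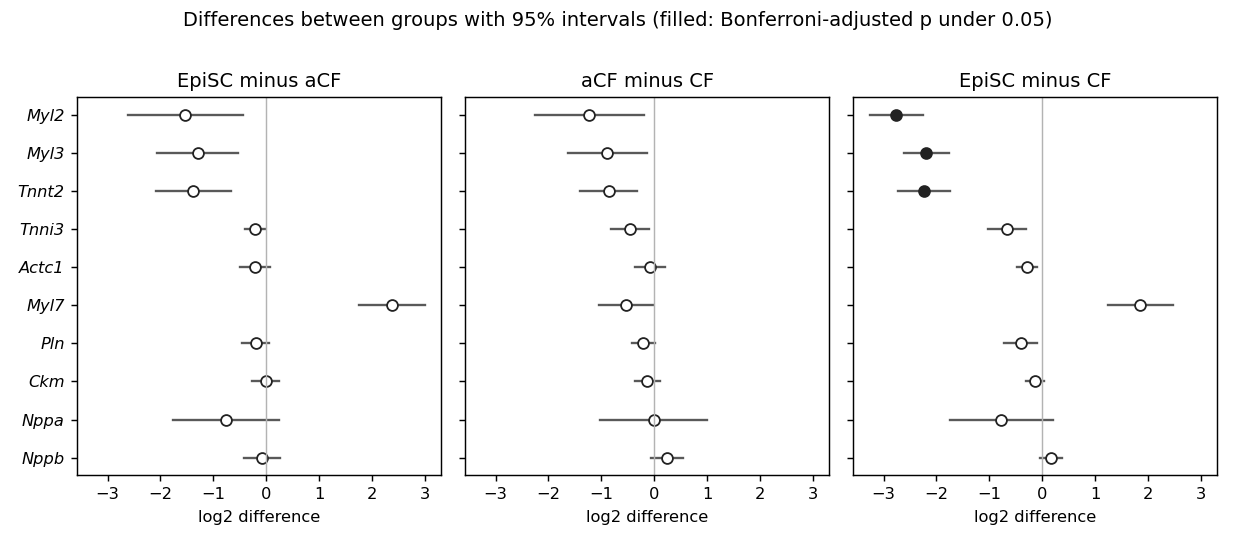
Log2 differences between groups for the 10 genes (points) with their 95% intervals (lines), in 3 comparisons, where filled points have a Bonferroni-adjusted p under 0.05. Filled points occur only for Myl2, Myl3 and Tnnt2 in EpiSC minus CF, and Myl7 lies on the positive side in both comparisons of EpiSC.

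Pln and Ckm serve calcium and energy handling. Pln encodes phospholamban, the brake on the calcium pump of the sarcoplasmic reticulum. It measured 0.15, -0.44, -0.07, -0.39 and -0.38 in EpiSC, 0.04, 0.02, -0.04, -0.15 and 0 in aCF, and 0.45, 0.12, 0.33, 0.13 and -0.12 in CF. The groups overlapped, EpiSC were lowest on average, and EpiSC1 lay within the CF range. The log2 difference of EpiSC from CF was -0.41 ± 0.14 (SE, limma, Benjamini-Hochberg adjusted p = 0.0468, Bonferroni-adjusted p = 1), and -0.06 without the extra 3 rows on chromosome 10.

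Ckm encodes the muscle creatine kinase. Its values ran from -0.21 to 0.09 with a median of -0.07 in EpiSC, from -0.24 to 0.29 with a median of -0.15 in aCF, and from -0.01 to 0.25 with a median of 0.03 in CF. The 3 groups overlapped throughout. The 95% intervals of its log2 difference were -0.26 to 0.24 for EpiSC against aCF, -0.37 to 0.11 for aCF against CF and -0.32 to 0.04 for EpiSC against CF. Without aCF4 and aCF5 the difference was -0.10 for EpiSC against aCF and -0.04 for aCF against CF.

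The natriuretic peptide genes are used as signs of load on heart muscle cells. Nppa encodes atrial natriuretic peptide, and its spread was the widest of the 10 within EpiSC and within CF. Its values were -0.05, -0.96, -0.21, 1.12 and -0.45 in EpiSC, 1.17, 1.36, 1.23, -0.49 and 0 in aCF, and -0.03, 1.74, 1.04, -0.18 and 0.76 in CF. High arrays occurred in each group, with EpiSC4, 3 aCF arrays and 2 CF arrays above 1, and aCF4 and aCF5 were the lowest of aCF. The SDs within groups were 0.77 in EpiSC, 0.84 in aCF and 0.79 in CF (n = 5 each). The log2 difference of EpiSC from aCF was -0.76, with a 95% interval of -1.77 to 0.24, and became -1.36 without aCF4 and aCF5. That of aCF from CF was -0.01, with an interval of -1.02 to 0.99, and became 0.59 without aCF4 and aCF5. Any difference of Nppa between aCF and CF inside the 95% interval, whether a rise or a fall, is compatible with these arrays. The interval is not a detection limit.

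Nppb encodes B-type natriuretic peptide. It measured 0.27, 0.08, -0.06, 0.19 and -0.21 in EpiSC, 0.17, 0.59, 0.17, -0.26 and 0 in aCF, and -0.11, -0.13, -0.22, -0.11 and 0.04 in CF. The groups overlapped, and aCF2 stood highest. It was the 1 gene of the 10 with a higher mean in aCF than in CF, by 0.24 on the log2 scale with a 95% interval of -0.05 to 0.53. That difference was 0.13 without aCF2 and 0.42 without aCF4 and aCF5. EpiSC differed from aCF by -0.08, and by -0.26 without aCF4 and aCF5.

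Counted over the list, EpiSC against CF had 8 of 10 genes below 0 and a median log2 difference of -0.54, against -0.01 over all probe sets. After Benjamini-Hochberg adjustment 6 were lower and 1 higher, where 17.7% and 14.5% of all probe sets passed in those directions. In 4 genes all EpiSC arrays lay below all CF arrays and in 1 they lay above, against 11.8% and 11.6% of all probe sets.

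Between EpiSC and aCF, where 0 of 10 passed the Bonferroni threshold in limma, an unadjusted p under 0.05, which 23.9% of all probe sets had, was found for 4 genes downward and 1 upward. After Benjamini-Hochberg adjustment 2 were lower and 1 higher, against 5.01% and 4.61% of all probe sets. The groups did not overlap in 1 gene, Myl7, which was higher in EpiSC as 5.18% of all probe sets were. The median over the 10 was -0.21, against 0.01 over all probe sets.

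Between aCF and CF, 0 of 10 passed the Bonferroni threshold in limma. With an unadjusted p under 0.05, 5 lay below CF and 0 above, where 31.1% of all probe sets reached that level in either direction. After Benjamini-Hochberg adjustment 1 was lower, Tnnt2 (limma, adjusted p = 0.0336), against 9.38% of all probe sets. Tnnt2 was also the 1 gene whose aCF arrays all lay below the CF arrays, against 6.84% of all probe sets. The median was -0.33, against -0.02 over all probe sets. EpiSC, aCF and CF enter these comparisons in pairs, so each pair of comparisons shares a group.

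In bulk fractions such as these, fewer heart muscle cells or cell fragments and less RNA per cell cannot be told apart. How the 10 genes moved together within groups was therefore described over the 15 arrays, after each group mean was taken out. Myl2, Myl3 and Tnnt2 varied together, with Pearson correlations from 0.812 (Myl2 with Tnnt2) to 0.964 (Myl2 with Myl3). Of all 45 pairs, 39 had a correlation above 0, with a median of 0.386 and a lowest value of -0.295 (Tnni3 with Pln). The split of aCF weighs on these values, since aCF4 and aCF5 are low for several of the genes. For the 8 genes on chromosomes 1 to 9 the same correlations served to check the row pairing, so the 2 are not independent.

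Actc1 followed Myl2 and Myl3 at 0.683 each although its own range was narrow, and Nppb followed Tnnt2 at 0.765. Nppa was closer to Tnnt2 (0.689) than to Myl2 (0.389). Myl7 had a median correlation of 0.04 with the other 9, from -0.24 with Tnnt2 to 0.55 with Ckm, and Pln a median of 0.08. Both lie on the chromosomes with the extra displacement, so a wrong pairing there cannot be told apart from a pattern of their own.

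**Figure D3:**
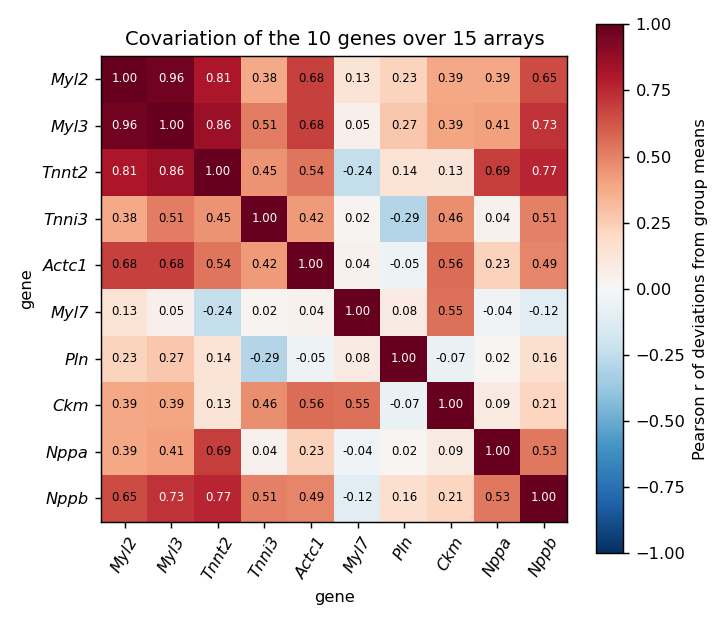
Pearson correlations between the 10 genes over 15 arrays, after each array's group mean was subtracted, with the value printed in each cell and red for positive. Myl2, Myl3 and Tnnt2 form a block from 0.812 to 0.964, Actc1 and Nppb join it at lower values, and Myl7 and Pln are near 0 with most of the others.

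Of all named genes outside the 10, Ttn followed the mean of the 10 most closely (r = 0.954 over 15 arrays), ahead of Col4a3 (0.856) and Smarca5 (0.849). Ttn encodes titin, the spring that spans the sarcomere. Ranks 4 to 8 were Lrrc55 (0.844), Qser1 (0.842), Olfr1280 (0.836), Plaa (0.834) and Bpnt2 (0.834). Lmod2, a leiomodin of the thin filament's pointed end, was ninth (0.833). How high the best of so many genes would correlate without a shared pattern was not tested. For single genes, Scml4 was closest to Myl2 (0.916), Tram1 to Myl3 (0.913), with Ttn next (0.895), and Cyp2j9 to Tnnt2 (0.89). Cox7a1, a muscle subunit of cytochrome c oxidase, was the third closest to Actc1 (0.845). Mitf was closest to Myl7 (0.876) and Olfr32 to Pln (0.84).

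Ttn itself lay between -0.66 and -0.35 in EpiSC, at 0, 0.37, 0.53, -0.67 and -0.73 in aCF, and between 0 and 0.71 in CF. It thus showed the same 2 low aCF arrays. EpiSC differed from CF by -0.81 ± 0.14 for Ttn (log2, SE, Bonferroni-adjusted p = 1 in limma). Of 8 measured genes of the thick filament and M-band, 0 passed the Bonferroni threshold in limma in any comparison, and at an unadjusted p under 0.05 in EpiSC against CF 0 were above CF and 3 below, a level that 42.7% of all probe sets reached. The 3 were Ttn, Myom2 (-0.66 ± 0.23), which encodes an M-band protein, and Smyd1 (-0.91 ± 0.18), a methyltransferase needed for sarcomere assembly. The list's median log2 difference of EpiSC from CF was 0.04, against -0.01 over all probe sets. Its mean over genes lay between -0.24 and -0.02 in EpiSC, between -0.30 and 0.25 in aCF and between 0.03 and 0.24 in CF. The list mean was thus lower in every EpiSC array than in every CF array, while the median gene did not fall.

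Genes of the thin filament and Z disc went both ways. Of 20 measured, 1 rose and 0 fell past the threshold in EpiSC against CF, as did 1.97% and 0.941% of all probe sets. The riser was Des, which encodes desmin, the intermediate filament of muscle cells and also of pericytes and other stromal cells. It stood between 1.23 and 2.00 in EpiSC, between -0.39 and 0.25 in aCF and between -1.27 and -1.03 in CF, with no overlap. EpiSC exceeded CF by 2.69 ± 0.13 for Des (log2, SE, limma, Bonferroni-adjusted p = 1.48e-05), the opposite direction to Tnnt2.

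The Z-disc genes Csrp3 and Myoz2 did not pass in EpiSC against CF. Csrp3, a muscle LIM protein, differed by -1.57 ± 0.18 (Bonferroni-adjusted p = 0.105) and Myoz2, a calcineurin-binding Z-disc protein, by -1.29 ± 0.19 (0.987). Both had their lowest aCF values in aCF4 and aCF5. Fhl2, a LIM protein of the Z disc that fibroblasts also express, rose in aCF against CF by 1.62 ± 0.15 (Bonferroni-adjusted p = 0.00937) and fell by 1.03 ± 0.11 in EpiSC against aCF (0.038). Both calls were lost without aCF4 and aCF5 (adjusted p = 0.303 and 0.659). With 1 array left out, the first was lost without aCF2, aCF3, aCF5 or CF1 (adjusted p up to 0.063), and the second held only without aCF1 (up to 0.228).

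Among 24 genes of calcium handling and excitation, 1 rose and 1 fell in EpiSC against CF, where 1.97% and 0.941% of all probe sets did. Gja1, which encodes the gap junction protein connexin 43 of muscle and stromal cells, rose by 2.32 ± 0.09 against CF (log2, SE, limma, Bonferroni-adjusted p = 2.88e-06) and by 1.59 ± 0.11 against aCF (0.000725). Fxyd1, phospholemman, a regulator of the sodium pump, fell by 0.89 ± 0.07 against CF (0.00421). Casq2, the calcium store protein of heart muscle, differed by -1.03 ± 0.12 against CF (0.154) and by -1.16 ± 0.15 against aCF (0.288). Unlike Myl2, Casq2 was not low in aCF4 (0.06) and aCF5 (0.36).

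Of 21 genes of muscle energy supply, 3 fell and 0 rose in EpiSC against CF, where 0.941% and 1.97% of all probe sets did. The list median was -0.35, against -0.01 over all probe sets. Cox8b, a muscle subunit of cytochrome c oxidase, fell by 1.57 ± 0.15 (log2, SE, limma, Bonferroni-adjusted p = 0.0207). Cd36, a fatty acid transporter of muscle, fat and endothelium, fell by 3.40 ± 0.17 (2.76e-05), and Lpl, lipoprotein lipase, fell by 0.78 ± 0.08 (0.0475). The Cd36 call held in all 10 omissions of 1 array. The Cox8b call held in 2 of them, those of EpiSC1 and EpiSC5 (adjusted p up to 0.135 in the others), and the Lpl call in 1, that of CF5 (up to 0.278).

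Of 6 measured genes for the processing and reception of natriuretic peptides, 2 fell and 0 rose in EpiSC against CF. The shares over all probe sets were 0.941% and 1.97%. Npr2, the receptor for C-type natriuretic peptide, fell by 1.37 ± 0.12 (log2, SE, limma, Bonferroni-adjusted p = 0.00953) and Mme, neprilysin, which degrades natriuretic peptides, fell by 1.75 ± 0.13 (0.00189). Mme also fell by 1.41 ± 0.13 in aCF against CF (0.0078). The Npr2 call was lost without EpiSC1, EpiSC3, EpiSC4 or any of CF1 to CF4 (adjusted p up to 0.0671), and the Mme call in aCF against CF without CF4 or CF5 (up to 0.0551). Neither gene is particular to heart muscle cells.

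Ventricular genes (5 measured) and cardiac transcription factors (7 measured) had 0 past the Bonferroni threshold in limma in all 3 comparisons. At an unadjusted p under 0.05, 0 of the ventricular genes lay above CF and 1 below in EpiSC, as did 0 and 5 of the transcription factors, where 42.7% of all probe sets reached that level. The median log2 difference of EpiSC from CF was 0.03 for the ventricular genes and -0.35 for the transcription factors, against -0.01 over all probe sets. Tbx20, a T-box factor of heart muscle and endocardium, differed by -1.65 ± 0.18 against CF (log2, SE, Bonferroni-adjusted p = 0.0636) and by -1.63 ± 0.18 against aCF (0.0716). Its aCF arrays, from -0.03 to 0.21, did not split as those of Myl2 did.

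**Figure D4:**
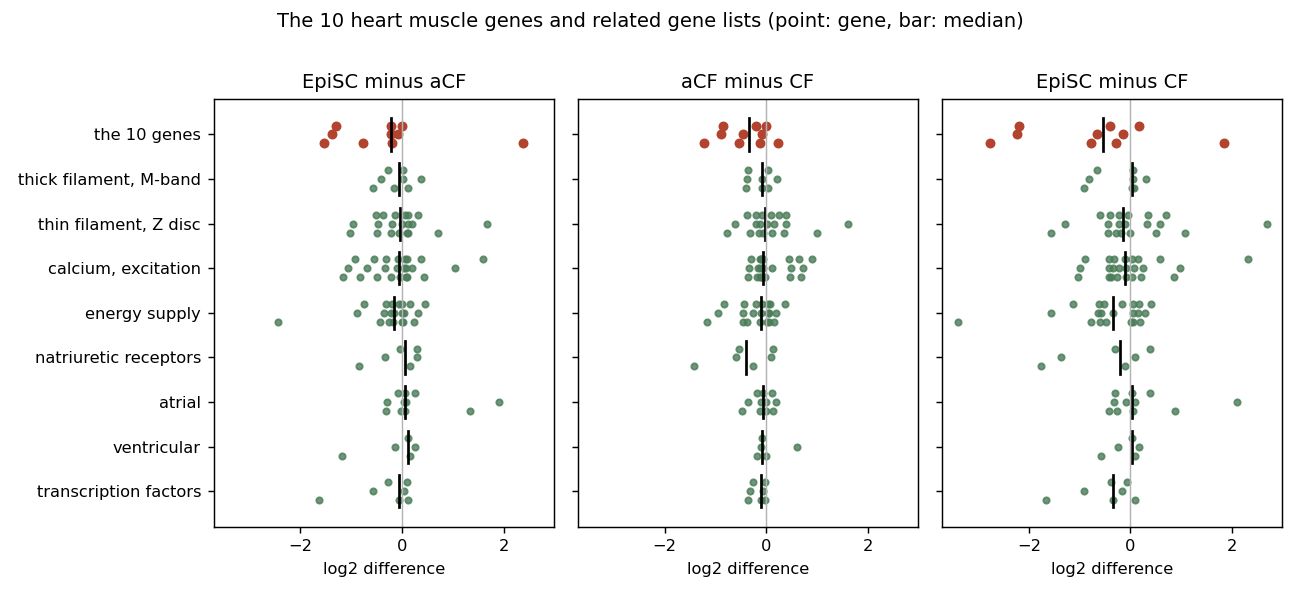
Log2 differences between groups (horizontal axis) for the 10 heart muscle genes in red and for genes of 8 related lists in green, with a bar at each list's median. In EpiSC minus CF the 10 genes have a median of -0.54, the energy supply list -0.35 and the atrial list 0.02, and both ends of the scale are reached by single genes such as Cd36 and Des.

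Markers of other cell types moved between the same groups, and their part in the results was not tested. The mean of 8 endothelial genes lay between -1.01 and -0.75 in EpiSC, between -0.13 and 0.47 in aCF, and between 0.25 and 0.68 in CF. This mean had the order of Myl2, with aCF4 (-0.13) and aCF5 (0.01) lowest in aCF, but single genes did not all follow it. The phosphatase gene Ptprb differed by 1.14 ± 0.19 between aCF and CF (log2, SE, Bonferroni-adjusted p = 1 in limma), and of the 8 genes 2 lay above and 5 below CF in aCF at an unadjusted p under 0.05, a level that 31.1% of all probe sets reached. In EpiSC against CF 1 of the 8, the junction gene Cdh5, fell (-2.88 ± 0.13, log2, SE, limma, Bonferroni-adjusted p = 9.54e-06), as did 0.941% of all probe sets.

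The mean of 9 smooth muscle and pericyte genes lay between -0.73 and -0.04 in EpiSC, between 0.12 and 0.58 in aCF, and between -0.98 and -0.48 in CF, and EpiSC4, the array with the least Myl7 of its group, was the highest of EpiSC. The list was split. In EpiSC against CF 3 of the 9 passed the Bonferroni threshold in limma upward (1.97% of all probe sets) and 0 downward (0.941%). The risers were Actg2 (log2 difference 3.66), Cnn1 (3.06) and Tagln (1.79). With an unadjusted p under 0.05 (42.7%), 3 lay above CF and 4 below, where Rgs5 had the largest fall (-2.45). Against aCF 2 of the 9 passed, both downward, Rgs5 (-3.58) and Higd1b (-2.1), against 0.666% of all probe sets. The mean of 7 macrophage genes lay between -0.33 and 0.00 in EpiSC, between 0.12 and 0.53 in aCF and between -0.21 and 0.07 in CF. Of 11 skeletal muscle genes, 0 passed the Bonferroni threshold in limma in any comparison, and in EpiSC against CF 4 lay above CF and 0 below with an unadjusted p under 0.05, against 42.7% of all probe sets in either direction. The 1 measured red blood cell gene, Alas2, stood between 0.50 and 1.22 in EpiSC, between -0.94 and 0.26 in aCF and between -0.75 and 0.17 in CF. The mean of 5 early stress genes lay between -0.56 and 0.54 in EpiSC, between -0.65 and -0.33 in aCF and between 0.30 and 0.71 in CF, so the order of these genes was not that of Myl2. Whether any marker was near background is lost with the centring.

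**Figure D5:**
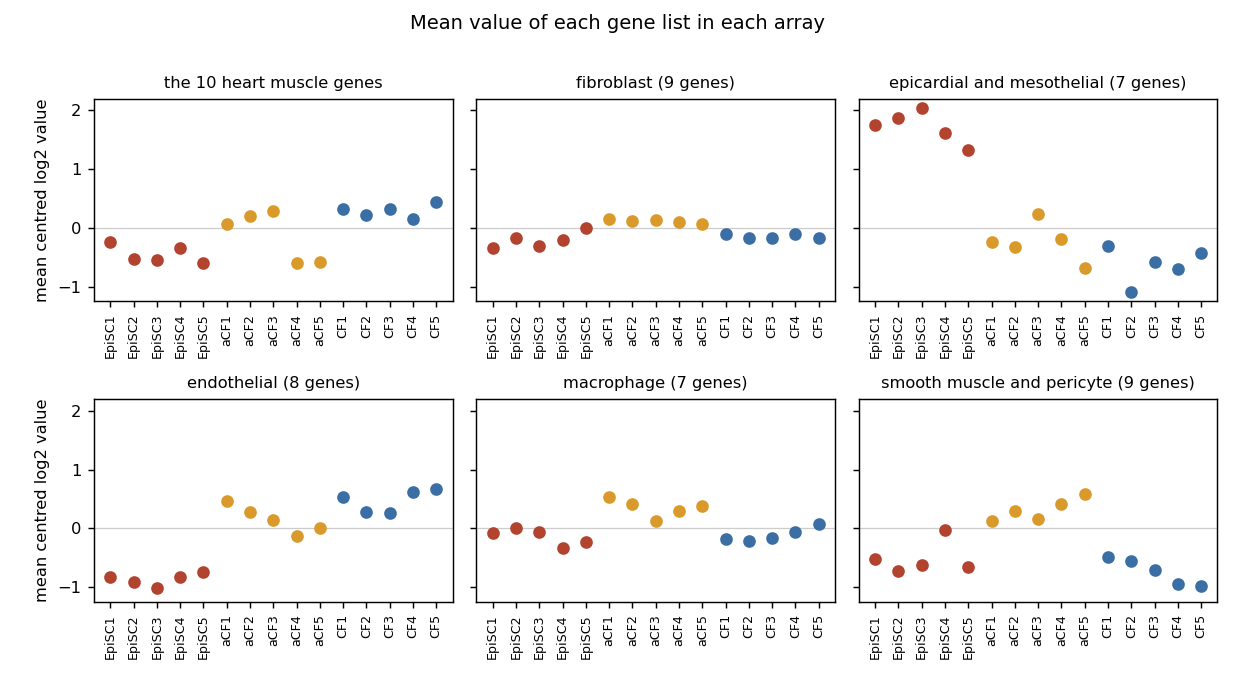
Mean centred log2 value (vertical axis) of the 10 heart muscle genes and of 5 lists of cell type markers in each of the 15 arrays (horizontal axis; red EpiSC, amber aCF, blue CF). The heart muscle mean is -0.61 in aCF4 and -0.58 in aCF5, against 0.06 to 0.29 in the other aCF arrays, and the endothelial mean is below -0.7 in all EpiSC arrays.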

How the data were processed

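RNA of 15 samples was measured on Affymetrix arrays after amplification from 1 ng. The deposited log2 values were made by the authors, per the series design text, with GeneSpring GX 12.5 by quantile normalization, an exon-level RMA summary and centring on each probe set's median. The base of the logarithm is not stated and base 2 is inferred from the RMA method. The values of 22206 probe sets range from -4.77 to 5.52.

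Identifiers were paired with values 6900 rows further down the table, and 6903 on chromosomes 10 and 11, which gave 15303 rows an identifier. Names come from the platform annotation (19572 probe sets with 1 symbol, 0 with several, 2634 with none), and all 13513 names with a value matched the RefSeq gene table. Genes on later chromosomes were not analysed here. The authors' filter on dim probe sets needs levels that centring removed, so all rows were tested.

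For each pair of groups, lmFit and eBayes of limma 3.58.1 were run (R 4.3.3, 2-sided), with Bonferroni adjustment over all rows and a threshold of 0.05, as in the design text, which names EpiSC against aCF and aCF against CF. EpiSC against CF was added. The fit was tested on simulated data. The labels call the 5 samples of a group biological replicates. Same replicate numbers are not stated to mark the same heart, so no pairing was used, although EpiSC and aCF were isolated together. The number of arrays limits the precision.

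Alternatives were Benjamini-Hochberg adjustment, 1 fit of all groups, quantile normalization, trended and robust eBayes, a replicate block, paired rows only, leaving out arrays, no extra displacement and names as deposited. The 10 genes, the gene lists and the tests were chosen with earlier results of these data known. Besides the 10, genes are named that passed the threshold or had 1 of the 3 largest differences of their list in a comparison, and those most like the 10 over the arrays.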

Additional observations from a re-analysis of the deposited data

How the results depend on the processing

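Of 506 recomputed differences of the 10 genes, 457 kept their direction and their side of the threshold, 19 lost a call, 13 gained one and 17 changed sign. Several alternatives could change only the p-value. Benjamini-Hochberg, the fit of all groups, trended and robust eBayes, the replicate block and paired rows only left each difference as it was. Direction was thus kept by construction in these, and the count of 457 is not a measure of stability. Only Myl2, Myl3 and Tnnt2 in EpiSC against CF had a call to lose. Of 16 alternatives each, the call was lost in 2 for Myl2, 6 for Myl3 and 11 for Tnnt2. The sign changes fell on 7 of 30 results. Without the extra 3 rows Myl7 gave -0.88 (EpiSC against aCF), 0.36 (aCF against CF) and -0.52 (EpiSC against CF), since another row was then read. Small differences changed sign with single arrays left out: Ckm in EpiSC against aCF (-0.058 to 0.0745), Nppb in EpiSC against aCF (-0.18 to 0.034), Actc1 in aCF against CF (-0.15 to 0.006) and Nppa in aCF against CF (-0.22 to 0.27). Nppa gave 0.15 after quantile normalization, and without aCF4 and aCF5 Nppa gave 0.59 and Actc1 0.12.

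The number of the 10 genes past the threshold was 0 in EpiSC against aCF, 1 with all 3 groups in 1 fit, 1 over paired rows only (fewer rows tested), 3 with Benjamini-Hochberg and 0 to 1 with 1 array left out. In aCF against CF it was 0, 1 with Benjamini-Hochberg and 1 with names as deposited (Ckm). In EpiSC against CF it was 3, 1 with all 3 groups in 1 fit, 7 with Benjamini-Hochberg and 1 to 4 with 1 array left out. With names as deposited it was 2 in EpiSC against CF, Myl7 and Ckm, both upward. Myl2, Myl3 and Tnnt2 did not pass under the deposited names. The call of Tnnt2 there was also lost after quantile normalization (adjusted p = 0.076).

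Over all probe sets, EpiSC against aCF had 148 past the threshold, 369 with all groups in 1 fit, 2135 with Benjamini-Hochberg, 97 with trended and robust eBayes, 50 without aCF4 and aCF5 and 73 to 143 with 1 array left out. For aCF against CF the count was 340, then 4023 with Benjamini-Hochberg, 212 with trended and robust eBayes, 144 without aCF4 and aCF5 and 197 to 272 with 1 array left out. EpiSC against CF had 647, 1060 with all groups in 1 fit, 7157 with Benjamini-Hochberg and 369 to 557 with 1 array left out. Beyond fewer samples or a looser adjustment, the cause was not tested.

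With the replicate number as a block the counts were 41, 94 and 166 in the same order, and in EpiSC against CF 1 of the 10 genes passed, Myl7 (adjusted p = 0.0158), while Myl2 (0.102), Myl3 (0.0943) and Tnnt2 (0.722) did not. Same-numbered samples correlated from 0.019 to 0.154 in EpiSC against aCF, where 1 of 5 pairs exceeded 0.1 and 4 of 5 were best with their own number. These correlations ran from -0.00876 to 0.156 in aCF against CF, where 1 of 5 exceeded 0.1 and 1 of 5 was best with its own number. In EpiSC against CF they ran from -0.022 to 0.04, with 0 of 5 above 0.1 and 1 of 5 best with its own number. The values do not settle a pairing by number. EpiSC and aCF were isolated together from an infarcted heart per the labels' protocols, and whether equal numbers mark the same heart is not stated.

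Signal over background is lost with the centring, so it is unknown whether narrow genes such as Ckm and Nppb were above background.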
